A study of Mus musculus with 33 samples.

Results

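The glucocorticoid response was followed through 10 genes, *Plin4*, *Fkbp5*, *Tsc22d3*, *Ddit4*, *Cdkn1a*, *Sgk1*, *Errfi1*, *Pdk4*, *Zbtb16* and the receptor gene *Nr3c1*, across 7 groups of mouse frontal cortex libraries. All 10 were found by symbol among the 21565 genes of the processed table. They were chosen as genes known to be induced by glucocorticoids, together with the receptor itself, and *Plin4* was chosen by measured values, since its rise after sleep loss in wild-type mice had the smallest p-value of all genes. The wild-type change from control sleep to sleep deprivation is therefore given as a description of all 10 genes. Which of them the fit over all genes called there is stated, but with no p-value and as support for nothing.

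The 33 libraries came from adult male mice on a C57BL/6J background, 1 mouse to a library. Wild-type (WT) mice slept freely (CS, n = 6), were kept awake for 6 hr (SD, n = 7), or were kept awake for 4 hr and then slept for 2 hr (RS, n = 7). *Mef2c* f/f mice, which carry loxP sites around a coding exon for the DNA-binding part of the transcription factor MEF2C, were sampled in CS (n = 4) and SD (n = 3). Mef2c-cKO mice carry the same floxed alleles and Cre under a *Camk2a* promoter (line T29-1), which acts in forebrain excitatory neurons, and were sampled in CS (n = 3) and SD (n = 3). Some Mef2c-cKO mice also carried a recombined allele in tail DNA, so loss outside these neurons is part of this model. All mice had been accustomed to a slow treadmill, which kept the SD mice awake, had been moved to constant darkness beforehand, and were sampled 6 hr after the usual time of lights on. P-values thus measure the spread between mice within a group.

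Glucocorticoids, which in mice means mainly corticosterone, enter cells and bind the glucocorticoid receptor, the product of *Nr3c1*. The bound receptor leaves its HSP90 complex, moves to the nucleus and binds DNA at palindromic response elements, where it raises transcription of a set of genes shared by many tissues. *Fkbp5* and *Tsc22d3* (GILZ) belong to the most widely used readouts of receptor activity in the brain, and in rodents corticosterone follows the clock and rises with stress.

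The element that the receptor binds was looked up in RefSeq promoters of build GRCm38.p6, each with 250 bases before and 50 after a transcription start. Of the 10 genes, 8 had an entry, with 17 promoters in all. The 15-letter palindrome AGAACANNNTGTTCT, read on both strands, was present in 3 of 32851 promoters (0.00913%), and 1 of these belongs to *Sgk1*, a kinase that regulates ion transport. In it the palindrome begins 189 bases before the start. Its 6-letter arm, AGAACA, which every full palindrome also contains, was present in 19.0% of promoters and in 4 of the 17, namely 3 of *Sgk1* and 1 of *Tsc22d3*. The only *Plin4* promoter in the table held neither. The 3 promoters are shown because they are the *Sgk1* one with the full palindrome, the *Tsc22d3* one with a single arm, and that of *Plin4*. Capitals mark the full palindrome in *Sgk1* and the arm, which reads TGTTCT on this strand, in *Tsc22d3*. A further arm in the *Sgk1* promoter, upstream of the palindrome, is left in lower case, and *Plin4* has no capitals. They lie at chr10:21993640-21993939 (plus strand), chrX:140600473-140600772 (minus strand) and chr17:56109733-56110032 (minus strand), and each is written 5′ to 3′ along its gene's strand.
Sgk1: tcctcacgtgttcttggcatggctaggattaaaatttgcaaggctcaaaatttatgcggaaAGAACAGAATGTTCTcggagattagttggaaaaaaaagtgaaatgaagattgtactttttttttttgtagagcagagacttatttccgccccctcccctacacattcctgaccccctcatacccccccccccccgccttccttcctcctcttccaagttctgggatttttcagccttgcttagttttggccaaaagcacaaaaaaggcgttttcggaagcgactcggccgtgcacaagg
Tsc22d3: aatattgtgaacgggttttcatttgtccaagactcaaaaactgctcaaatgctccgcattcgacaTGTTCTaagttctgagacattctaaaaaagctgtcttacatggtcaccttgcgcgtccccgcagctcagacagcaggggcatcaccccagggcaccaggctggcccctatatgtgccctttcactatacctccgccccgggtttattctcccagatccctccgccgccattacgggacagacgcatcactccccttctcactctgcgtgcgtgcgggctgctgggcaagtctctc
Plin4: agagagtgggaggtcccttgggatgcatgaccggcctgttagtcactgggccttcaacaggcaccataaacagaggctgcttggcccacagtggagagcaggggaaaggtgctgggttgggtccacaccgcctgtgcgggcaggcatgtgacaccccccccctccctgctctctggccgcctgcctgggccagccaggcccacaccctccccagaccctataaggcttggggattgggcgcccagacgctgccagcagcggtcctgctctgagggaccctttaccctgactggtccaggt

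Values are CPM, a library's read counts scaled to a common total, rescaled between libraries by median-of-ratios factors. Library totals went from 18935045 to 249046089 reads. WT totals include reads of genes that are not listed in the table, whereas the totals of the other genotypes do not, so WT values are set beside the others but were not tested against them. Cells and RNA per cell cannot be told apart in bulk tissue, so a lower level may be fewer cells of a type or less RNA in each. The 7 excitatory neuron markers were detected in every library. *Mef2c* itself, counted over the whole gene, checks the labels little, because only a single exon is removed, and it had medians of 1150 in *Mef2c* f/f CS and 1608 in Mef2c-cKO CS.

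Among the 6 Mef2c-cKO libraries, 2 stood apart before any comparison. In SD replicate 6, 95 of 13511 genes lay more than 1 log2 unit above all 5 other Mef2c-cKO libraries, and 6 of the 10 genes were highest there. This library was also high in activity-regulated genes, named here after their values were seen: *Fos* was at 45.0 against at most 11.1 in the others, and *Bdnf* at 151 against at most 35.4. CS replicate 8 had 340 such genes, and the summed level of its 7 astrocyte markers was 2834, where the median of its group was 1165. The part of either library's state in the results was not tested, and the main values that SD replicate 6 touches are also given without it, an alternative chosen after seeing the data.

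*Plin4*, a coat protein of lipid droplets, lies on chromosome 17 (56100591 to 56109803, minus strand, mm10). It was low and even in WT CS, from 0.800 to 1.43 with a median of 1.19 (46 to 257 reads per library). In WT SD it lay between 4.31 and 9.91 with a median of 5.48, and in WT RS between 1.78 and 10.8 with a median of 3.99. Neither WT SD nor WT RS overlapped WT CS, and the highest WT RS value (replicate 12) was above every WT SD value. The 4 *Mef2c* f/f CS libraries were at 0.718, 1.59, 0.826 and 1.84, and the 3 SD libraries at 1.78, 4.32 and 1.80. The Mef2c-cKO CS libraries were at 0.734, 0.330 and 1.06, and those of SD at 0.613, 3.62 and 0.519. Only SD replicate 6 was high among the Mef2c-cKO mice, and the other 2 SD libraries lay within the CS range. Ordered by median, the groups ran from Mef2c-cKO SD (0.613) and Mef2c-cKO CS (0.734) through WT CS (1.19), *Mef2c* f/f CS (1.21), *Mef2c* f/f SD (1.80) and WT RS (3.99) to WT SD (5.48). Every pair of neighbours in this order overlapped in range.

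**Figure D1:**
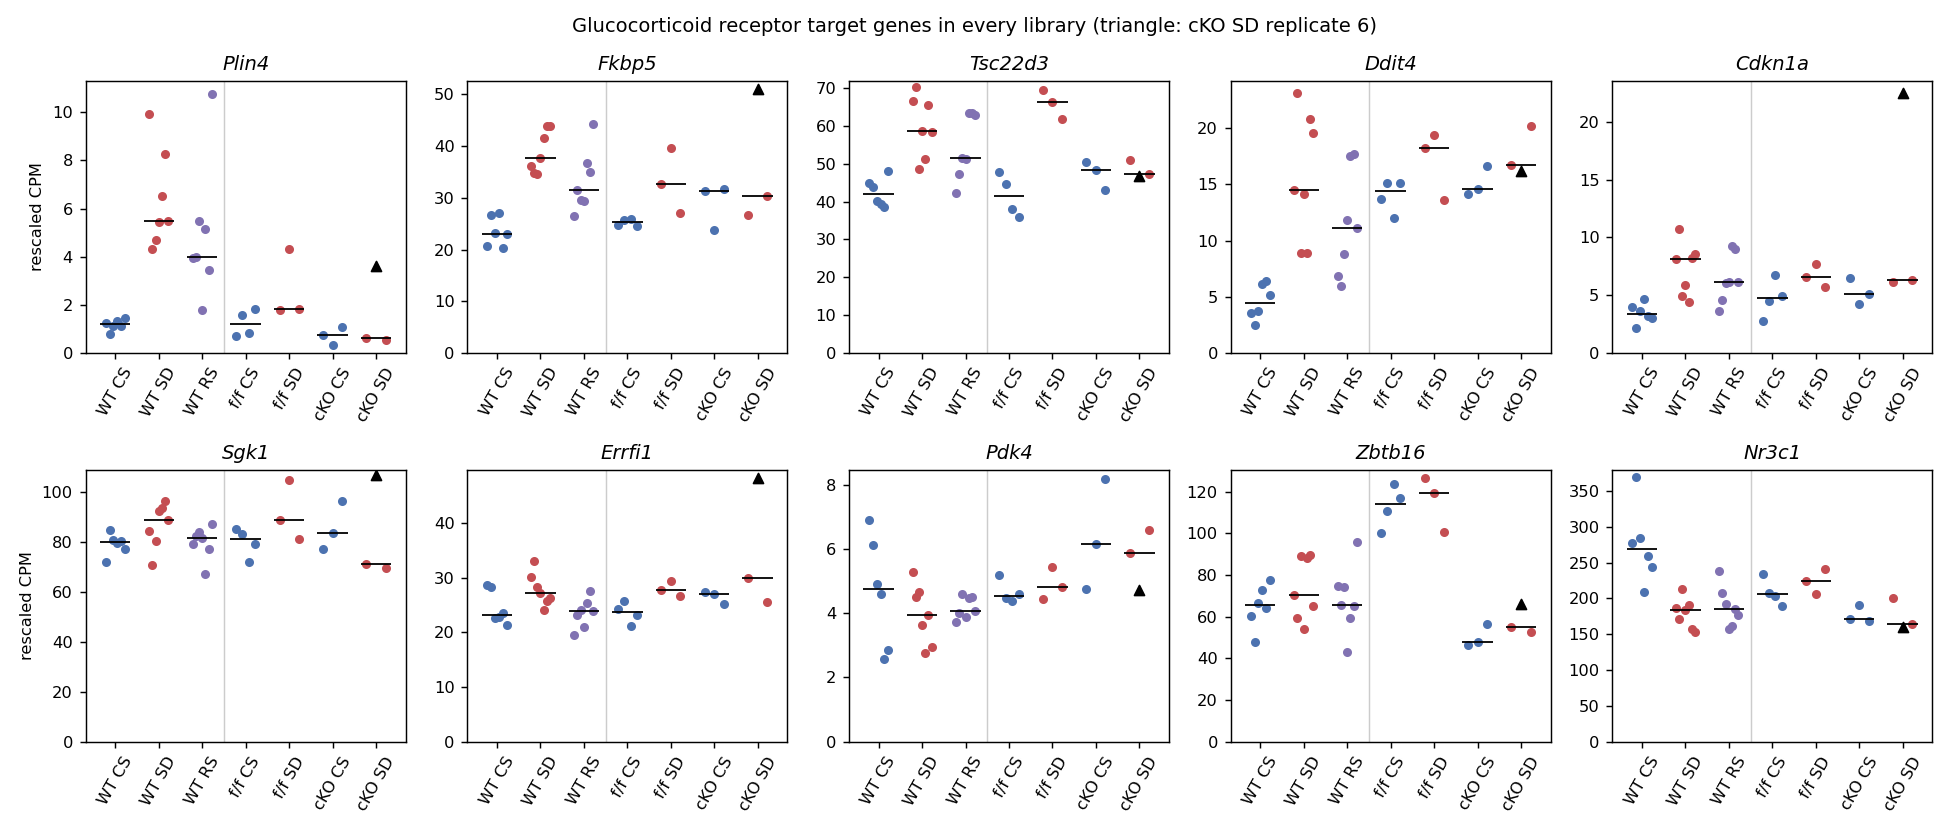
Rescaled CPM (linear axis from 0) of the 10 genes in each of the 33 libraries, by group, with points for libraries, lines for group medians and a black triangle for Mef2c-cKO SD replicate 6. *Plin4* separates WT CS (at most 1.43) from WT SD (at least 4.31), *Zbtb16* separates *Mef2c* f/f from Mef2c-cKO, and the triangle is the highest Mef2c-cKO point for 6 genes.

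In WT SD, 6 of the 10 genes passed both thresholds against WT CS (Benjamini-Hochberg adjusted p of at most 0.05 in limma and a log2 fold change of at least 0.3 in size), 5 higher and 1 lower, where 45.1% of all genes tested passed, 24.6% higher and 20.5% lower. *Plin4* was chosen on this contrast and the other genes with its results known, so the count is a description. *Plin4* passed the filter only through WT SD, its CPM before rescaling being 0.573 and 0.939 in WT CS replicates 2 and 3. *Plin4* had a log2 fold change of 2.00 (SE 0.17) on the scale of log2(CPM + 0.5), which understates the change of low genes, and of 2.45 in edgeR on recovered reads. The receptor's co-chaperone *Fkbp5*, which lowers the receptor's affinity for hormone, went from 20.2 to 27.0 in CS (median 23.1) to 34.5 to 43.9 in SD (median 37.7), a log2 fold change of 0.72 (SE 0.10). *Tsc22d3*, which encodes an anti-inflammatory leucine zipper protein, went from 38.7 to 48.2 (median 42.1) to 48.6 to 70.2 (median 58.6), a log2 fold change of 0.48 (SE 0.10). *Ddit4*, an inhibitor of mTORC1 also known as REDD1, went from 2.45 to 6.38 (median 4.45) to 8.87 to 23.2 (median 14.5), a log2 fold change of 1.65 (SE 0.25).

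*Fkbp5*, *Tsc22d3*, *Ddit4* and *Plin4* were the 4 genes whose SD libraries all lay above all CS libraries, as 4.68% of the genes tested did. This count too is a description. *Cdkn1a*, the cyclin-dependent kinase inhibitor p21, overlapped narrowly, with 2.13 to 4.69 in CS (median 3.40) and 4.43 to 10.7 in SD (median 8.16), and had a log2 fold change of 0.95 (SE 0.20). *Nr3c1* was the only one of the 10 that was lower. It went from 209 to 369 in CS (median 269) to 154 to 213 in SD (median 184), a log2 fold change of -0.59 (SE 0.12).

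The other 4 genes did not pass the thresholds in WT SD. *Sgk1* had medians of 80.0 in CS and 88.9 in SD. *Errfi1*, a feedback inhibitor of EGF receptor signalling, had 23.1 and 27.3. *Pdk4*, which restrains pyruvate oxidation, had 4.76 and 3.96, and *Zbtb16* (PLZF), a zinc finger transcription factor, had 65.6 and 70.4. No relation between the promoter letters and these changes was tested.

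Base composition and scaling moved with these values. *Ddit4* (57.9% GC in its transcript), *Plin4* (55.9%) and *Cdkn1a* (54.4%) were the most GC-rich of the 10 and *Nr3c1* (42.2%) the least. With a trend on GC content and length removed, the log2 fold change was 1.77 for *Plin4*, 1.199 for *Ddit4*, 0.70 for *Cdkn1a*, 0.64 for *Fkbp5*, 0.56 for *Tsc22d3* and -0.16 for *Nr3c1*, which then no longer passed the fold threshold. Taking the deposited CPM without rescaling raised the median of all genes by 0.26 on the log2 scale. *Sgk1* (0.40), *Errfi1* (0.45) and *Zbtb16* (0.44) then also passed the thresholds. Relative to the median of all genes in the main scaling (0.04), *Plin4* was higher by 1.97. Markers of other tissue moved with WT SD too. All 5 red blood cell markers and 4 of the 6 meningeal fibroblast markers tested passed higher. The summed level of the 5 red blood cell markers was 28.2 to 118 in CS and 97.9 to 285 in SD, and that of the 7 meningeal markers 10.7 to 48.0 in CS and 57.4 to 92.9 in SD. In each WT group 1 meningeal marker was at 0 in a library. The part of these cells in the values above was not tested.

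Recovery sleep of 2 hr left the same 6 genes past both thresholds against WT CS, 5 higher and 1 lower, where 17.5% of genes tested were called. The comparison shares the WT CS libraries with the one above. The count, in which *Plin4* is included, is therefore a description, and the values and p-values are not separate support. *Fkbp5* had a log2 fold change of 0.48 (SE 0.12) and *Tsc22d3* of 0.34 (SE 0.11), with adjusted p of 0.0335 and 0.0426 in limma with Benjamini-Hochberg adjustment. *Ddit4* had 1.19 (SE 0.27, adjusted p = 0.0329 in limma), *Cdkn1a* 0.78 (SE 0.20, adjusted p = 0.0351 in limma) and *Nr3c1* -0.53 (SE 0.13, adjusted p = 0.0334 in limma). *Plin4*, given without a test, had 1.57 (SE 0.27).

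*Plin4* was the only one of the 10 whose RS libraries all lay above the CS libraries, as 1.7% of genes tested did. This is a description, since *Plin4* was chosen for its rise over the same CS libraries. It passed the filter here only through the RS libraries. For the other 9, RS and CS overlapped. *Fkbp5* lay between 26.4 and 44.2 in RS (median 31.4), *Tsc22d3* between 42.3 and 63.6 (median 51.6), *Ddit4* between 5.99 and 17.7 (median 11.1), *Cdkn1a* between 3.60 and 9.22 (median 6.16) and *Nr3c1* between 158 and 239 (median 185). These calls were fragile. They fell to 0 of 10 when WT CS replicate 3 or WT RS replicate 3, 5, 6 or 12 was left out, and to 1 without WT CS replicate 1 or 2 or WT RS replicate 4, with the log2 fold changes of all 6 kept in sign. The fall was not particular to the 10, since calls over all genes also fell to 0 where those of the 10 did. Without WT CS replicate 1 or 2 or WT RS replicate 4 they were 223, 98 and 3, against 2232 with all libraries. With the GC and length trend removed, *Cdkn1a* (0.57, adjusted p = 0.0509 in limma) and *Nr3c1* (-0.19, adjusted p = 0.0830 in limma) no longer passed.

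**Figure D2:**
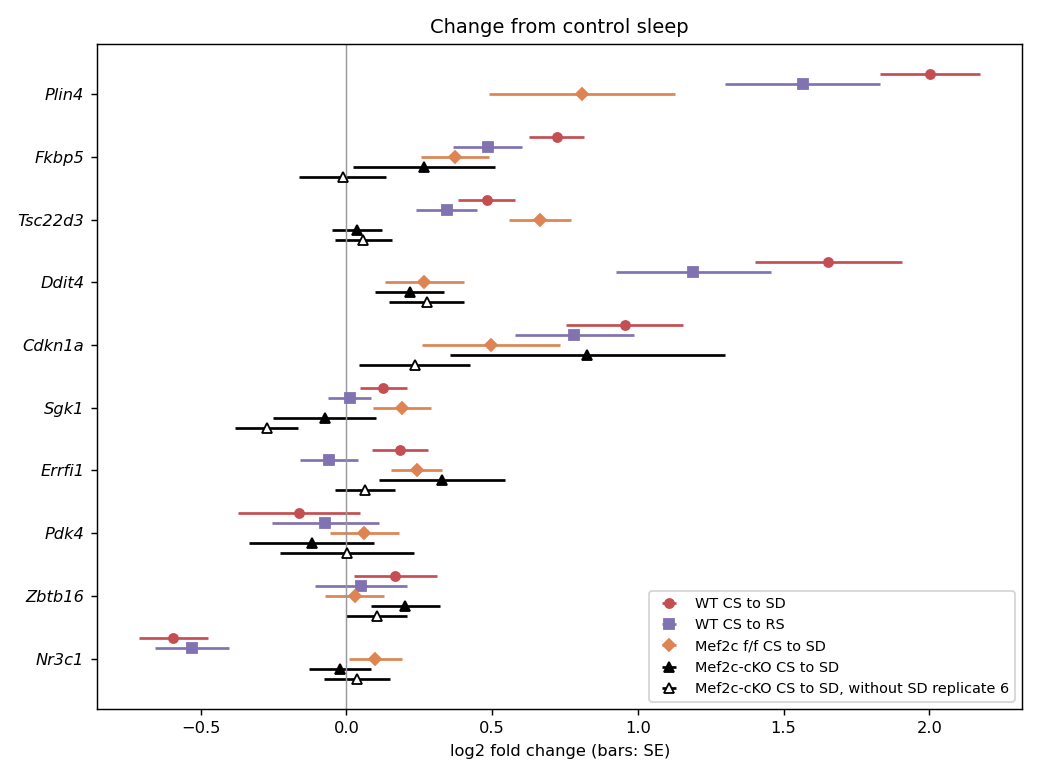
Log2 fold changes of the 10 genes from control sleep (horizontal axis, bars are the SE of the limma fit), by genotype and sleep state, with open triangles for Mef2c-cKO without SD replicate 6 and no Mef2c-cKO point for *Plin4*, which did not pass the filter there. *Plin4* runs from 2.00 in WT SD to 0.81 in *Mef2c* f/f SD, and *Tsc22d3* is at 0.66 in *Mef2c* f/f and 0.04 in Mef2c-cKO.

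From WT SD to WT RS, 0 of the 10 genes passed in limma, where 0.0232% of genes tested did (3 of 12921). DESeq2 and edgeR on the recovered reads also called 0 of the 10. An unadjusted p under 0.05 in limma was found for 2 of the 10 and for 683 of the 12921 genes tested. Of the 10 genes, 8 had lower estimates in RS. *Plin4* was lower by 0.44 on the log2 scale (SE 0.27) without a test. *Ddit4* had a log2 fold change of -0.46 (SE 0.27), *Fkbp5* of -0.24 (SE 0.10), *Cdkn1a* of -0.17 (SE 0.21) and *Tsc22d3* of -0.14 (SE 0.11), and *Nr3c1* of 0.07 (SE 0.10). The genes with an unadjusted p under 0.05 were *Fkbp5* (adjusted p = 0.878 in limma) and *Errfi1* (adjusted p = 0.614 in limma), whose medians were 27.3 in SD and 23.8 in RS.

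After SD in *Mef2c* f/f mice all 10 genes had positive log2 fold changes, with a median of 0.25 where the median of all genes was 0.00, and 0 of the 10 passed in limma, where 0.0403% of genes tested did. *Tsc22d3*, *Fkbp5* and *Errfi1* had an unadjusted p under 0.05 in limma, as did 2111 of 12410 genes tested. Markers of other cells moved in this contrast too. All 5 red blood cell markers were lower at an unadjusted p under 0.05, with a median of -1.01 and summed levels of 123 to 183 in CS and 56.4 to 105 in SD. Of 7 oligodendrocyte markers 5 had such a p, with a median of 0.27. None of these markers passed after adjustment in limma, and their part in the values was not tested. *Tsc22d3* was at 47.8, 44.6, 38.1 and 36.0 in CS and at 69.6, 66.4 and 61.9 in SD. The groups did not overlap, and the log2 fold change was 0.66 (SE 0.11, adjusted p = 0.0726 in limma). The same gene passed when the trend on GC content and length was removed (0.67, adjusted p = 0.0205 in limma) and in DESeq2 (0.66, adjusted p = 2.09e-05). Over all genes, 111 of 12387 and 467 of 12410 passed in these settings.

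*Fkbp5* was at 24.8, 25.7, 25.9 and 24.5 in *Mef2c* f/f CS and at 32.8, 39.7 and 27.1 in SD, again without overlap, with a log2 fold change of 0.37 (SE 0.12, adjusted p = 0.178 in limma). *Errfi1* was the third gene whose groups did not overlap, with 21.2 to 25.7 in CS and 26.7 to 29.4 in SD. Such separation upward was found in 8.53% of all genes tested. *Plin4* had a log2 fold change of 0.81 (SE 0.32). It entered this fit only because all 3 SD libraries were above a CPM of 1, so no p of the fit is given for it. In an exact two-sided permutation test of *Plin4* in these 7 libraries p was 0.143, and the smallest value that 35 splits allow is 0.0286.

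*Ddit4* and *Nr3c1*, which passed the thresholds in WT SD with the main scaling, had log2 fold changes of smaller size in *Mef2c* f/f, and that of *Nr3c1* was positive. *Ddit4* was at 13.7, 15.2, 11.97 and 15.2 in CS and at 18.3, 19.4 and 13.6 in SD, with a log2 fold change of 0.27 (SE 0.14, adjusted p = 0.346 in limma). These levels already lay near the WT SD median of 14.5 in control sleep, and the 6 Mef2c-cKO libraries were likewise between 14.1 and 20.2. WT libraries were not tested against those of the other genotypes, and the origin of this gap was not tested. *Nr3c1* was at 190 to 234 in *Mef2c* f/f CS and 206 to 240 in SD, with a log2 fold change of 0.10 (SE 0.09, adjusted p = 0.595 in limma). *Cdkn1a* was at 2.75, 4.50, 6.79 and 4.97 in CS and at 6.60, 7.71 and 5.67 in SD, with 0.50 (SE 0.24, adjusted p = 0.321 in limma).

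In Mef2c-cKO mice, 0 of the 9 genes that passed the filter were called after SD in limma (0.0234% of genes tested were) or in DESeq2 and edgeR. Of these 9, 0 had an unadjusted p under 0.05 in limma, where 391 of 12810 genes tested did. *Plin4* did not pass the filter. *Tsc22d3* was at 50.4, 48.4 and 43.0 in CS and at 51.1, 46.8 and 47.2 in SD, with a log2 fold change of 0.04 (SE 0.09, adjusted p = 0.998 in limma). *Fkbp5* was at 31.3, 23.9 and 31.6 in CS and at 26.7, 51.1 and 30.3 in SD, and its log2 fold change of 0.27 (SE 0.24) became -0.01 (SE 0.15) without SD replicate 6. *Cdkn1a* was at 6.51, 4.27 and 5.12 in CS and at 6.13, 22.5 and 6.35 in SD. Its log2 fold change of 0.83 (SE 0.47) became 0.24 (SE 0.19) without that library. *Ddit4* had 0.22 (SE 0.12) and *Nr3c1* -0.02 (SE 0.11).

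SD replicate 6 split the 10 genes. It was highest of the 6 Mef2c-cKO libraries for *Cdkn1a*, *Plin4*, *Errfi1* (48.3 against at most 30.01), *Fkbp5*, *Zbtb16* (66.2 against at most 56.4) and *Sgk1* (107 against at most 96.4). It exceeded the next highest by more than 1 log2 unit for *Cdkn1a* and *Plin4*, and 0.703% of 13511 genes did so. *Tsc22d3*, *Ddit4*, *Pdk4* and *Nr3c1* were not highest there, and *Nr3c1* (161) and *Pdk4* (4.73) were the lowest of the 6. Of 23 other glucocorticoid-induced genes it was highest for 10 and CS replicate 8 for 9. The 10 included *Arrdc2* (8.04 against at most 4.75), *Nfkbia* (17.0 against at most 10.9) and *Klf9* (210 against at most 162). SD replicate 6 was highest for 21.9% of all genes and CS replicate 8 for 29.6%.

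**Figure D3:**
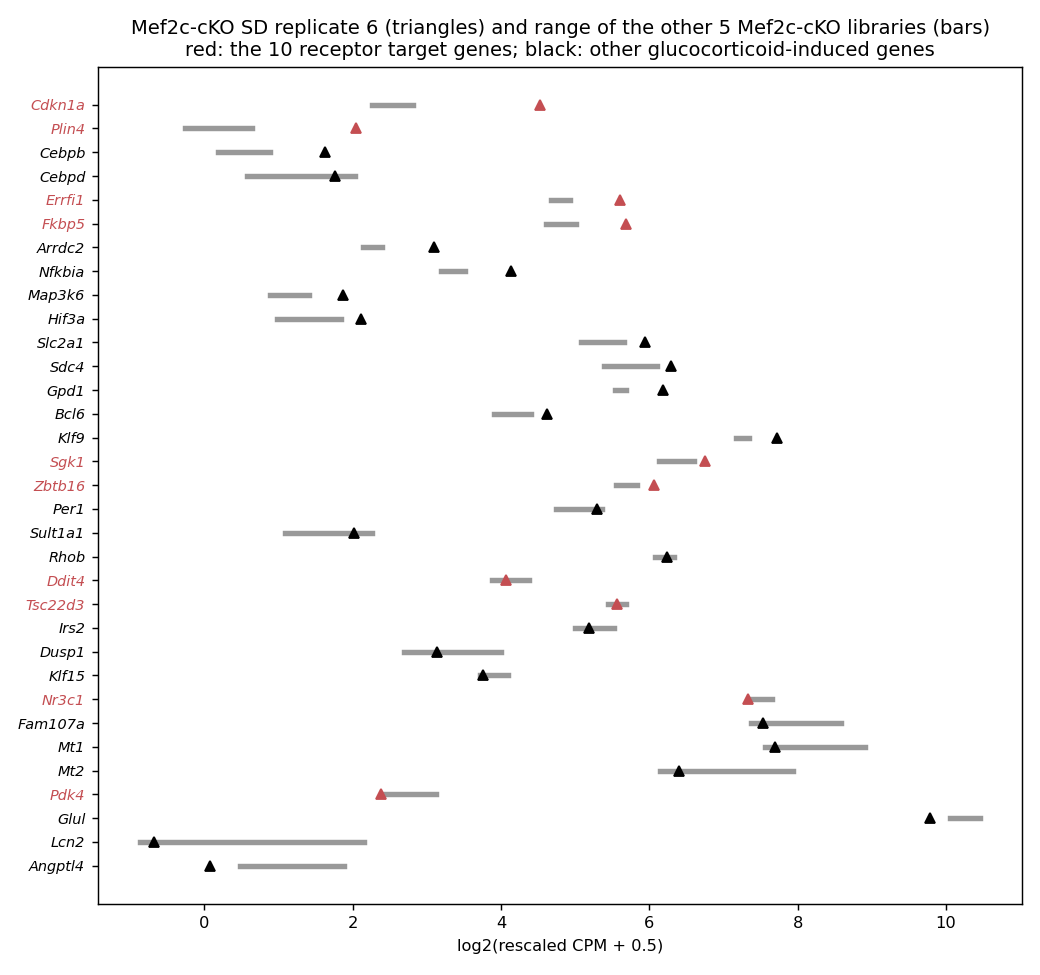
Level as log2(rescaled CPM + 0.5) of Mef2c-cKO SD replicate 6 (triangles) and range of the other 5 Mef2c-cKO libraries (bars), for the 10 genes (red) and 23 other glucocorticoid-induced genes (black), ordered by the distance of replicate 6 from the mean of the others. *Cdkn1a* and *Plin4* lie farthest above their bars and *Tsc22d3* and *Ddit4* lie on theirs.

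Between genotypes in control sleep, 1 of the 9 genes tested differed, where 7.67% of genes tested were called. *Zbtb16* was at 100.3, 111, 124 and 117 in *Mef2c* f/f CS and at 46.5, 47.7 and 56.4 in Mef2c-cKO CS. Its log2 fold change was -1.16 (SE 0.10, adjusted p = 9.90e-04 in limma), and the groups did not overlap, as in 13.5% of genes tested in this direction. In the same comparison *Nr3c1* had -0.23 (SE 0.10, adjusted p = 0.152 in limma), *Tsc22d3* 0.19 (SE 0.12, adjusted p = 0.322 in limma) and *Fkbp5* 0.18 (SE 0.11, adjusted p = 0.315 in limma). *Ddit4* had 0.11 (SE 0.12) and *Cdkn1a* 0.18 (SE 0.26). WT libraries lay between 42.9 and 96.0 for *Zbtb16*, all below the *Mef2c* f/f CS range. The call of *Zbtb16* held without each library in turn, with log2 fold changes from -1.25 to -1.11, although calls over all genes fell from 973 to 171 without Mef2c-cKO CS replicate 7 and to 175 without *Mef2c* f/f CS replicate 2. Markers moved in this comparison as well. The 5 red blood cell markers had a median of -1.75 with 2 called lower, the 6 microglia markers a median of 0.72 with 0 called, and 2 of 7 oligodendrocyte and 2 of 7 meningeal markers were called higher. Their part in the genotype values was not tested.

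After SD, 3 of the 10 genes were lower in Mef2c-cKO than in *Mef2c* f/f, where 15.1% of genes tested were called, 9.1% higher and 5.99% lower. *Zbtb16* was at 126, 119 and 101 in *Mef2c* f/f SD and at 55.2, 66.2 and 52.4 in Mef2c-cKO SD, a log2 fold change of -0.99 (SE 0.11, adjusted p = 0.00145 in limma). *Tsc22d3* had -0.44 (SE 0.07, adjusted p = 0.00596 in limma), from the values given above, and its groups did not overlap either. *Nr3c1* was at 224, 206 and 240 in *Mef2c* f/f SD and at 200.4, 161 and 165 in Mef2c-cKO SD, with a log2 fold change of -0.35 (SE 0.10, adjusted p = 0.0423 in limma). This call of *Nr3c1* was lost with the deposited CPM (-0.28, adjusted p = 0.0725 in limma), with the GC and length trend removed (-0.25, adjusted p = 0.0714 in limma) and without *Mef2c* f/f SD replicate 1, 2 or 3 or Mef2c-cKO SD replicate 7. Separation downward was found in 18.7% of genes tested. *Plin4*, which passed the filter only through the *Mef2c* f/f SD libraries, had -0.81 (SE 0.53), *Fkbp5* had 0.07 (SE 0.23), *Ddit4* 0.06 (SE 0.14) and *Cdkn1a* 0.51 (SE 0.43).

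Without SD replicate 6 these values changed for several genes. *Plin4* then had -1.46 (SE 0.29) and *Sgk1* -0.37 (SE 0.10). Both are given without a p, since the library left out is the one in which they were seen to be high. *Fkbp5* had -0.20 (SE 0.13) and *Cdkn1a* -0.077 (SE 0.13). *Zbtb16* (-1.09) and *Tsc22d3* (-0.42) still passed, and *Nr3c1* (-0.30) no longer reached the fold threshold. Over all SD libraries, summed marker levels also differed for several cell types. The 6 microglia markers in the table were at 149 to 155 in *Mef2c* f/f SD and 186 to 204 in Mef2c-cKO SD, and 4 of the 6 passed higher. In the same order, the 7 excitatory neuron markers were at 2429 to 2574 and 1947 to 2154, with 2 passing lower. The 7 inhibitory neuron markers were at 540 to 616 and 712 to 830, with 3 passing higher and 2 lower. The 7 astrocyte markers were at 1041 to 1069 and 1230 to 1356, with 2 passing higher. The sums of the remaining marker lists overlapped. The part of cell makeup in the genotype values was not tested.

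Averaged over *Mef2c* f/f and Mef2c-cKO mice, SD left 0 of the 10 genes past the thresholds in limma, where 0.0311% of genes tested passed (4 of 12860). An unadjusted p under 0.05 in limma was found for 5 of the 10 and for 1292 of the 12860 genes tested. *Tsc22d3* had a log2 fold change of 0.35 (SE 0.07, adjusted p = 0.184 in limma), *Plin4* 0.66 (SE 0.34), *Cdkn1a* 0.66 (SE 0.28), *Fkbp5* 0.32 (SE 0.14), *Ddit4* 0.24 (SE 0.10) and *Nr3c1* 0.04 (SE 0.07). DESeq2 called *Tsc22d3* alone among the 10 (0.34, adjusted p = 0.00513), and edgeR called 0. Of all 12860 genes tested, DESeq2 called 62 and edgeR 2. For *Plin4* an exact two-sided permutation test that kept the genotypes apart gave p = 0.114 over 700 splits, the mean difference being 0.66 on the log2 scale. Without SD replicate 6 the difference was 0.34 and p was 0.291 by the same exact permutation test, and *Cdkn1a* (0.37) and *Fkbp5* (0.18) were lower in estimate too.

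The interaction asks whether SD acted differently in Mef2c-cKO than in *Mef2c* f/f mice. In limma 0 of the 10 genes passed, where 0.00778% of genes tested did (1 of 12860). An unadjusted p under 0.05 was found for 1005 of the 12860 genes tested and for 1 of the 10. That gene was *Tsc22d3*, at -0.63 (SE 0.14, adjusted p = 0.325 in limma). DESeq2 called it (-0.62, adjusted p = 0.0215) and edgeR did not. Of all 12860 genes tested, DESeq2 called 59 and edgeR 1. *Plin4* had -0.29 (SE 0.67), and -0.94 (SE 0.51) without SD replicate 6. *Fkbp5* had -0.11 (SE 0.28) and -0.39 (SE 0.20) without it, and *Cdkn1a* 0.33 (SE 0.55) and -0.26 (SE 0.36). In all libraries *Ddit4* had -0.05 (SE 0.19) and *Nr3c1* -0.12 (SE 0.14). The SD effect on these 10 genes was thus not shown to depend on genotype in the main fit.

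Per kb of exon, levels in WT CS ran from *Nr3c1* (median 34.9 CPM per kb) through *Sgk1* (16.3), *Zbtb16* (12.4), *Tsc22d3* (9.70), *Errfi1* (6.46), *Ddit4* (2.54), *Fkbp5* (2.44), *Pdk4* (1.35) and *Cdkn1a* (0.957) to *Plin4* (0.205). Neighbours in this order overlapped in range for *Sgk1* (14.7 to 17.3) and *Zbtb16* (9.05 to 14.7), *Zbtb16* and *Tsc22d3* (8.92 to 11.1), *Ddit4* (1.40 to 3.63) and *Fkbp5* (2.14 to 2.85), and *Pdk4* (0.732 to 1.97) and *Cdkn1a* (0.600 to 1.32). The other neighbours did not overlap. *Plin4* was the lowest of the 10 in all 7 groups. In WT SD its median was 0.949 CPM per kb, still under that of *Pdk4* (1.13).

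Mice of the same group also differed in *Plin4*, and the genes that varied with it were listed as a description. Deviations of log2 values from the group means were taken over the 33 libraries, and Pearson's r with *Plin4* was computed for 13451 genes, 5% of which were above 0.33. The 5 highest were *Itgad* (0.71), *Kctd3* (0.68), *Adipor2* (0.68), *Fkbp5* (0.68) and *Gpd1* (0.68), with Spearman's rho of 0.64, 0.72, 0.63, 0.56 and 0.74. *Adipor2* encodes an adiponectin receptor and *Gpd1* the cytosolic glycerol-3-phosphate dehydrogenase. Over the same libraries *Zbtb16* had 0.61, *Sgk1* 0.56, *Cdkn1a* 0.45, *Errfi1* 0.40, *Tsc22d3* 0.11, *Ddit4* 0.08, *Pdk4* -0.05 and *Nr3c1* -0.27. The libraries share depth and base composition effects as well as state. Leaving out the 2 libraries farthest from the median *Plin4* deviation gave 0.64 for *Itgad*, 0.48 for *Fkbp5*, 0.52 for *Zbtb16*, 0.39 for *Sgk1* and 0.33 for *Cdkn1a*.

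Mef2c-cKO SD replicate 6 carried part of this pattern. Over the 32 other libraries r was 0.53 for *Fkbp5*, 0.62 for *Zbtb16*, 0.35 for *Sgk1*, 0.19 for *Cdkn1a* and 0.06 for *Errfi1*. *Zbtb16*, which did not pass in any sleep comparison with the main scaling, then ranked 6 of 13451 genes and *Fkbp5* ranked 33. *Tsc22d3* then had 0.17 and *Ddit4* 0.14.

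**Figure D4:**
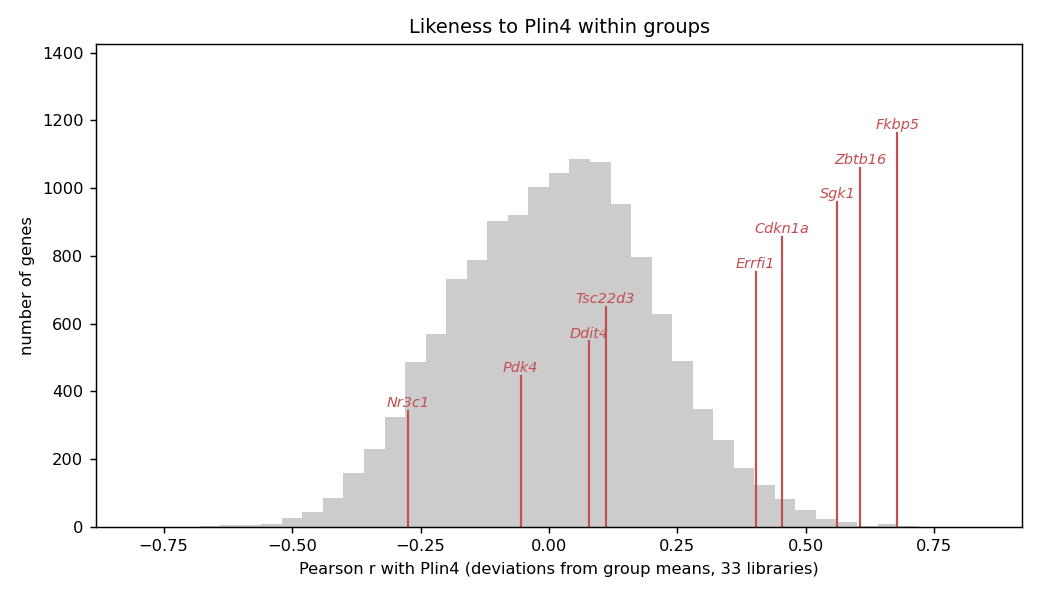
Distribution over 13451 genes of Pearson's r with *Plin4* (horizontal axis, deviations from group means, 33 libraries), with red lines at the other 9 genes, whose heights carry no value. *Fkbp5* (0.68), *Zbtb16* (0.61) and *Sgk1* (0.56) lie in the upper tail, while *Tsc22d3* (0.11) and *Ddit4* (0.08) lie near the middle.

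Other genes of the pathway were taken from lists. Of 23 further glucocorticoid-induced genes, 22 were tested in WT SD and 19 passed higher and 0 lower, where 24.6% and 20.5% of all genes passed in each direction. Their median log2 fold change was 0.63, where that of all genes was 0.04. *Cebpd*, a C/EBP transcription factor, had 1.21, *Rhob*, a small GTPase, 1.06, *Mt1* and *Mt2*, the zinc-binding metallothioneins, 0.93 and 0.86, and *Per1*, a clock gene with a receptor element, 0.61. *Klf9*, a Krüppel-like factor, was at -0.04 and did not pass. With the GC and length trend removed 12 of 22 passed higher, the median being 0.37, where 1701 of all 12443 genes tested passed higher. The list was drawn up with earlier results of these data known, so the count is a description.

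In WT RS, 10 of the 19 genes of that list that were tested passed higher and 0 lower (9.28% and 8.22% of all genes), with a median of 0.43. Without WT CS replicate 3, 0 of them passed, and 0 of all genes did. In *Mef2c* f/f SD, 0 of 20 passed in limma, 6 did in DESeq2 and 0 in edgeR, with 19 of 20 positive and a median of 0.29. Of all 12410 genes tested there, 5 passed in limma, 467 in DESeq2 (192 higher) and 9 in edgeR. In Mef2c-cKO SD, 0 of 20 passed by any of the 3 tools, with 11 positive and a median of 0.11, which was -0.03 without SD replicate 6 and between -0.03 and 0.25 over all libraries left out in turn. Between genotypes *Hif3a*, a hypoxia-inducible factor subunit, was lower in Mef2c-cKO in CS (-1.01, SE 0.22, adjusted p = 0.0293 in limma) and in SD (-0.81, SE 0.16, adjusted p = 0.0126 in limma). *Sult1a1*, a sulfotransferase, was lower in SD (-0.77, SE 0.16, adjusted p = 0.0157 in limma). Of 21 tested in SD, 2 passed lower and 0 higher, where 5.99% and 9.1% of all genes tested did. Without SD replicate 6 the SD values were -0.95 for *Hif3a* and -0.79 for *Sult1a1*, and both passed. *Klf9* (-0.45) and *Slc2a1* (-0.41), which were high in that library, then passed lower too, as did 875 of all 12862 genes tested. With each library left out in turn, 0 to 4 genes of the list passed lower in SD and 0 to 1 in CS, so these calls were not stable.

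**Figure D5:**
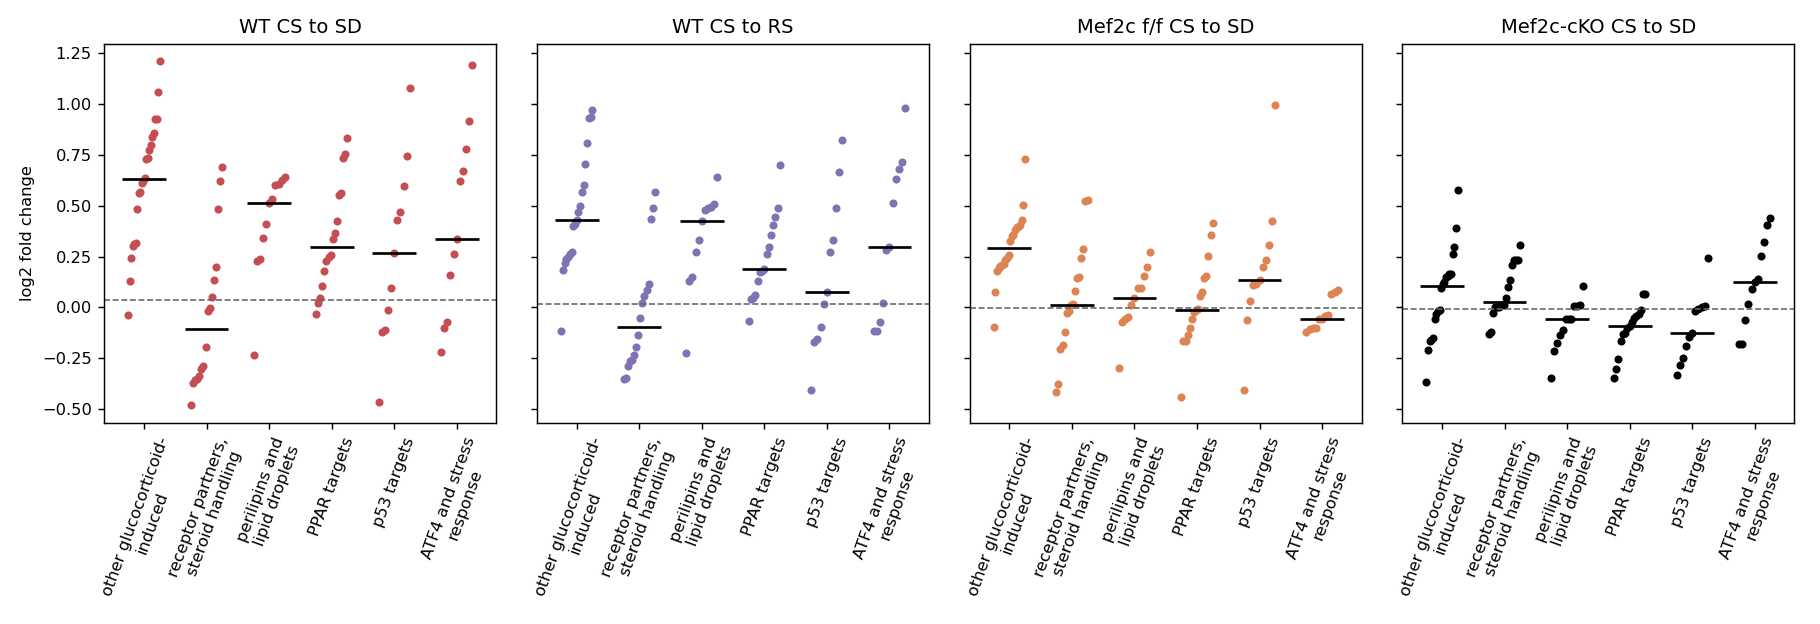
Log2 fold change (vertical axis) of each tested gene of 6 lists in 4 comparisons with control sleep, with bars for list medians and a dashed line for the median of all genes. The other glucocorticoid-induced genes have medians of 0.63 in WT SD, 0.43 in WT RS, 0.29 in *Mef2c* f/f and 0.11 in Mef2c-cKO.

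Upstream of the targets, 16 of 17 genes for receptor partners and steroid handling were tested in WT SD, and 3 passed higher and 3 lower, with a median of -0.11. These shares lie below those of all genes (24.6% and 20.5%), so the genes are named as a description. Among the higher ones were *Crh*, the corticotropin-releasing hormone (0.62), and *Fkbp4*, a co-chaperone that opposes FKBP51 at the receptor (0.48). The lower ones were the coactivator *Ncoa1* (-0.36), the corepressor *Ncor1* (-0.48) and the mineralocorticoid receptor gene *Nr3c2* (-0.35). In WT RS *Crh* (0.49) and *Fkbp4* (0.44) passed. In *Mef2c* f/f and Mef2c-cKO SD 0 passed in limma. *Crhr1*, the main receptor for CRH, was lower in Mef2c-cKO than in *Mef2c* f/f in CS (-0.91, SE 0.22, adjusted p = 0.0400 in limma) and in SD (-0.62, SE 0.13, adjusted p = 0.0169 in limma). In SD *Nrip1* was lower too (-0.32), while *Fkbp4* (0.40) and the CRH-binding protein gene *Crhbp* (0.90) were higher. Of 16 tested in SD, 2 thus passed higher and 2 lower, where 9.1% and 5.99% of all genes tested did. All 4 SD values passed without SD replicate 6 as well. *Crh* (0.54) and *Nr3c2* (0.36) then passed higher too, where 1572 of all 12862 genes tested did. With each library left out in turn, 1 to 4 genes of the list passed higher and 0 to 2 lower in SD. In CS it was 0 to 1 in each direction.

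The study's own list of glucocorticoid response genes, taken from an ontology term and limited to genes expressed in these samples, is not independent evidence. It had 8 of 26 tested genes higher and 5 lower in WT SD, with a median of 0.11, near the shares of all genes (24.6% and 20.5%). It held 3 of the 10 genes, *Ddit4*, *Nr3c1* and *Sgk1*, of which *Ddit4* was higher, *Nr3c1* lower and *Sgk1* did not pass. In *Mef2c* f/f and Mef2c-cKO SD, 0 of its genes passed in limma.

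Lipid droplet genes were read beside *Plin4*. Of 15 listed, 11 were tested in WT SD and 7 passed higher and 0 lower, where 24.6% and 20.5% of all genes did, with a median of 0.51. They were *Plin3* (0.51), *Pnpla2* (0.61), *Lipe*, the hormone-sensitive lipase (0.34), *G0s2* and *Hilpda*, inhibitors of PNPLA2 (0.63 and 0.53), *Dgat2*, which makes triglyceride (0.64), and *Fitm2* (0.60). *Plin2*, the most abundant perilipin outside fat, was at 0.23 and did not pass. All 7 values were below the 2.00 of *Plin4*, which was chosen on this same contrast, so the order is a description. In *Mef2c* f/f and Mef2c-cKO SD 0 passed in limma, with medians of 0.05 and -0.06. Between genotypes in SD *Plin2* (0.76) and *Dgat2* (0.41) were higher and *Mgll* (-0.39) lower in Mef2c-cKO. These were 2 and 1 of 12 tested, where 9.1% and 5.99% of all genes tested passed. Without SD replicate 6 *Plin2* (0.96), *Dgat2* (0.33) and also *Plin3* (0.64) passed higher, as did 1572 of all 12862 genes tested, and *Mgll* (-0.26) did not pass. With each library left out in turn, 0 to 3 genes of the list passed higher and 0 to 1 lower.

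*Plin4*, *Pdk4* and *Angptl4* are also targets of PPAR receptors, *Cdkn1a* of p53 and *Ddit4* of ATF4, so those lists were read beside them, against 24.6% of all genes higher and 20.5% lower in WT SD. Of 16 PPAR targets 7 passed higher and 0 lower in WT SD (median 0.30), among them *Ucp2* (0.83), *Txnip* (0.75) and *Angptl4* (0.74), while *Cpt1a* (0.10) and *Acadm* (-0.03) did not pass. Of 11 p53 targets 4 passed higher and 1 lower (median 0.27), *Bbc3* having 1.08 and *Ccng1* -0.46. Of 11 genes of the integrated stress response 6 passed higher and 0 lower (median 0.34), led by *Atf5* (1.19) and *Atf4* (0.92). In *Mef2c* f/f SD the only gene of these 3 lists to pass in limma was *Gadd45a* (0.99), and in Mef2c-cKO SD there was 0.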

How the data were processed

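Frontal cortex RNA of 33 mice was sequenced. The authors used Trimmomatic for trimming, STAR for alignment (mm10) and HTSeq for counts of unique reads, and deposited CPM from edgeR. All 711645 values were whole reads to within 0.01 once the value of a single read was divided out.

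Libraries were rescaled with median-of-ratios factors from 11570 genes, and log2 was taken after adding 0.5. Fits used limma 3.58.1 in R 4.3.3 with a trend, on genes for which every replicate of a compared group reached a CPM of 1. A gene was called where its p after Benjamini-Hochberg adjustment did not exceed 0.05 and its log2 fold change reached 0.3 in size (interaction: p alone). *Plin4* was also tested with exact permutations. edgeR 4.0.16 and DESeq2 1.42.0 on recovered reads were alternatives, beside other pseudocounts, filters and scalings, a trend on GC content and length, a replicate block, and each library left out. Positions and GC content came from GENCODE M21. The procedure was tested on simulated data. Named genes are the 10, the listed genes and those most like *Plin4*, unless stated.

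The genes, lists, rule and tests were chosen with earlier results of these data known. *Plin4* and *Cdkn1a* share 17 and 273 exonic bases with genes on the opposite strand, and the library kit was stranded. All members had at least 14 reads in every library.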

Additional observations from a re-analysis of the deposited data

How the results depend on the processing

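Of the 10 genes, 6 passed in WT CS to SD. A filter that asked for a CPM of 5 in each library left 3, since *Plin4*, *Ddit4* and *Cdkn1a* were no longer tested. In WT CS to RS 6 passed, against 3 without a filter (*Plin4*, *Ddit4* and *Fkbp5*) and 3 with the CPM filter of 5, and leaving out each library in turn gave 0 to 6, the cause of which was not tested. In *Mef2c* f/f CS to SD 0 passed, against 1 with the GC and length trend removed and 1 in DESeq2, *Tsc22d3* in each, and 0 to 1 with a library left out (1 without CS replicate 1). DESeq2 also gave 1 for the averaged SD effect and 1 for the interaction. Over all genes DESeq2 called 467 in *Mef2c* f/f, 62 for the averaged effect and 59 for the interaction. Over all genes, calls in WT CS to SD numbered 5826, from 2699 (GC and length trend removed) to 6907 (CPM as deposited), and in WT CS to RS 2232, from 385 without a filter to 3420 in DESeq2, and with a library left out from 0 (without WT CS replicate 3 or WT RS replicate 3, 5, 6 or 12) to 3740 (without WT RS replicate 1). Between genotypes in CS 973 genes were called, and 171 to 875 with a library left out. With CPM as deposited, the share of higher calls moved from 54.6% to 88.4% in WT CS to SD, from 53.05% to 88.2% in WT CS to RS, and between genotypes from 41.3% to 71.8% in CS and from 60.3% to 77.5% in SD.

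Samples that share a replicate number were not paired by the labels. Their deviations correlated from -0.33 to 0.55 in WT CS and SD, and from 0.068 to 0.67 in WT CS and RS. In WT SD and RS the range was -0.73 to 0.33. With a replicate block 2 of the 10 genes passed in WT CS to SD (*Plin4* and *Fkbp5*) and 1 in *Mef2c* f/f (*Tsc22d3*), over all genes 287 and 13 did, and in WT CS to RS 4279 did. Between genotypes no paired analysis was possible because the groups share no replicate numbers.

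Some directions turned, among them those of values as large as 0.51 (*Cdkn1a* between genotypes in SD) and 0.33 (*Cdkn1a* in the interaction). *Nr3c1* in WT SD to RS was at -0.020 with CPM as deposited and -0.024 with the trend removed. With the block, *Tsc22d3* (-0.0081) and *Nr3c1* (0.0036) turned in Mef2c-cKO and *Ddit4* (0.039) and *Cdkn1a* (-0.31) in the interaction. *Ddit4* between genotypes in SD was -0.047 with the trend removed, and *Plin4* in the interaction was 0.066 in DESeq2. With a library left out, the range in Mef2c-cKO was -0.012 to 0.45 for *Fkbp5*, -0.031 to 0.082 for *Tsc22d3* and -0.12 to 0.037 for *Nr3c1*. Between genotypes it was -0.029 to 0.36 for *Cdkn1a* in CS, and in SD -0.20 to 0.26 for *Fkbp5*, -0.092 to 0.16 for *Ddit4* and -0.077 to 0.82 for *Cdkn1a*. For the averaged effect of *Nr3c1* it was -0.012 to 0.068. For the interaction it was -0.94 to 0.066 for *Plin4*, -0.39 to 0.075 for *Fkbp5*, -0.20 to 0.046 for *Ddit4* and -0.26 to 0.64 for *Cdkn1a*. The other values recomputed for *Plin4*, *Fkbp5*, *Tsc22d3*, *Ddit4*, *Cdkn1a* and *Nr3c1* kept their direction under the alternatives run. *Plin4* rests on few reads in Mef2c-cKO CS (14 to 43), which limits its folds there.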
